A study of Mus musculus with 12 samples.

Results

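Nampt, Nnmt, Sirt1, Sirt3, Nadk, Nmnat1, Naprt, Nadsyn1 and Qprt make, convert or consume NAD, and their hepatic mRNA was compared between sedentary mice and mice exercised after a meal. These 9 genes were taken by symbol from a table of 17432 genes, and all 9 passed the filter on low counts, with 12344 genes tested in all. The livers came from male wild-type C57BL/6J mice, a common inbred strain, aged 8 to 10 weeks and kept on synchronized feeding for 3 days. The 6 mice of the Exercise group ran on a treadmill at 14 m/min for 3 hours after refeeding. The 6 mice of the Sedentary group were refed in the same way without running, and the paper calls this state postprandial. Food was removed from both groups before the run, and livers were taken at its end. There was 1 time point, and whole liver was sequenced, in which fewer cells of a type and less RNA per cell cannot be told apart. The total was 18745379 to 19324461 estimated counts per liver, and counts of the 9 genes ran from 126 for Sirt1 to 4959 for Nnmt.

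NAD carries electrons between the pathways that burn fuel, and it is also a substrate that sirtuins and ADP-ribosyltransferases split, which releases nicotinamide. The liver builds NAD by several routes: from tryptophan through quinolinic acid (de novo synthesis), from nicotinic acid, and from recycled nicotinamide (salvage). Nicotinamide can also be methylated and lost to the urine, and NAD can be phosphorylated to NADP, the coenzyme of lipid synthesis and antioxidant defense. The sirtuins read the NAD supply, and transcription of Nampt is known as a target of the circadian clock through E-box sequences.

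The promoters of 3 genes are shown because they stand for a gene that rose, a gene that did not pass the test and a gene that fell. Each is the RefSeq window on GRCm38.p6 from 250 bases before to 50 bases after the transcription start, printed on the strand of the gene, and capitals mark an E-box, the palindrome CACGTG bound by clock and related factors.
Sirt1, chr10:63338986-63339285, minus strand: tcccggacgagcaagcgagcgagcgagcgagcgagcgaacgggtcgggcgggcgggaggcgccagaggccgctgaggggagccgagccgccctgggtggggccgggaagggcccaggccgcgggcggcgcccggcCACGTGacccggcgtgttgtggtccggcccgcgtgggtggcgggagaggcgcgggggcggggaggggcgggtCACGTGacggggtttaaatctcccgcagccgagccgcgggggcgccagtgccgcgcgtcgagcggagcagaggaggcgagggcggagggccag
Nampt, chr12:32820085-32820384, plus strand: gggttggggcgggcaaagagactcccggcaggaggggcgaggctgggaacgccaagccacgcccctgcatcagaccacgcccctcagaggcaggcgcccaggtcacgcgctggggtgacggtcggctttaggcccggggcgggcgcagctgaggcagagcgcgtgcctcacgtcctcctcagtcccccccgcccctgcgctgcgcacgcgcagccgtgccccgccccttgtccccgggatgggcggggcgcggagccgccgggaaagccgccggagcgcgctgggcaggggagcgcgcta
Qprt, chr7:127121980-127122279, minus strand: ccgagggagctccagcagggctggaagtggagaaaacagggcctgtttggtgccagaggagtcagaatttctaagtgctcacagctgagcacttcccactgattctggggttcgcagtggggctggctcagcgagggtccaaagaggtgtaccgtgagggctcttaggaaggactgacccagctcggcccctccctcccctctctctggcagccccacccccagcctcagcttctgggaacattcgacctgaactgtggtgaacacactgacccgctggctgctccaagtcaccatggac
The Sirt1 window held 2 E-boxes, whose first bases lie 115 and 43 bases before the start site. An E-box occurred in 7.15% of the 32851 windows of this length in the table, and 2 or more occurred in 0.594% of them. No CACGTG was found in these windows of Nampt or Qprt, which says only that the letters are not in this stretch. Windows were given for 7 of the 9 genes, 10 windows in all. Nnmt and Naprt had none, so their promoters were not searched. The only other E-box lay in the second window of Nadk, 40 bases before that start. Both strands were also searched for 4 other motifs. The short form TGACG of the cAMP response element (in 20.8% of all windows) was found once each in a window of Sirt1, Nampt, Sirt3 and Nadsyn1, and in Sirt1 it shared 2 bases with the E-box nearest the start. GCGCATG, the core of the NRF1 motif (3.91%), was found once, in the second window of Nadk. Neither the FOXO motif GTAAACA (3.65%) nor the glucocorticoid response element-like ACANNNTGT (6.85%) was found. These matches describe letters, and binding was not measured.

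After exercise, Nnmt and Sirt1 mRNA were clearly higher, Nadk was slightly higher, and Qprt was lower. With edgeR (quasi-likelihood, p-values adjusted over all genes by Benjamini and Hochberg), 4 of the 9 genes (44.4%) passed the threshold of 0.05, against 42.4% of all genes tested, so the share is near the background. By direction, 3 of 9 rose (background 21.1%) and 1 of 9 fell (background 21.3%). The median log2 fold change (log2FC) of the 9 was 0.07, against -0.0028 over all genes tested. In 3 of the 9, Nnmt, Sirt1 and Qprt, the 6 exercised livers did not overlap the 6 sedentary livers, compared with 22.3% of all genes tested.

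**Figure D1:**
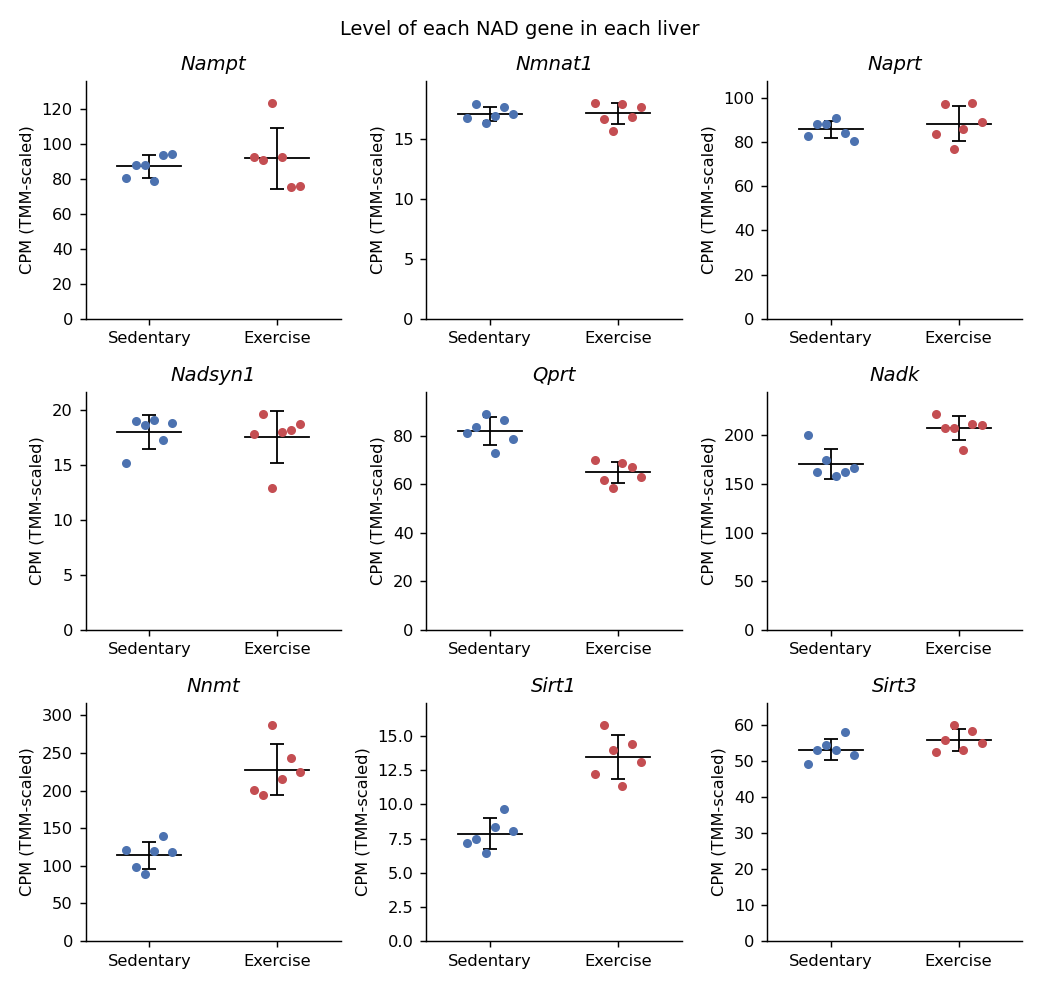
Level of each of the 9 genes, in counts scaled to a common library size (CPM) after TMM normalization, in the 6 Sedentary (blue) and 6 Exercise (red) livers; each point is a liver, the line is the mean and the bars are the SD. Nnmt and Sirt1 sit higher and Qprt lower in every exercised liver, and 1 exercised liver stands apart in Nampt and Nadsyn1.

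Nnmt, nicotinamide N-methyltransferase (gene ID 18113), uses S-adenosylmethionine to methylate nicotinamide and thereby takes it out of salvage. It lies on chromosome 9 of GRCm38 from 48591877 to 48605153 on the minus strand. In sedentary livers its level was 88.4 CPM at the lowest, 119 at the median and 139 at the highest, and in exercised livers it was 194, 220 and 287 CPM. Every exercised liver lay above every sedentary one. The mean rose from 114 ± 18.01 CPM in the Sedentary group to 228 ± 33.9 CPM in the Exercise group (SD, n = 6 each), a 2.00-fold increase (95% interval 1.69 to 2.36). The log2FC was 1.00 (SE 0.11; adjusted p = 6.25e-06, edgeR). A two-sided exact permutation test over all relabellings of the 12 livers gave p = 0.00216, the smallest it can give.

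Sirt1 (gene ID 93759) encodes the nuclear NAD-dependent deacetylase that acts on transcription factors and coactivators of fasting metabolism. It lies on chromosome 10 from 63319005 to 63381704 on the minus strand, a GENCODE span that encloses the RefSeq promoter window shown above. Its level was low, with 6.42, 7.77 and 9.68 CPM as the lowest, median and highest sedentary values and 11.4, 13.5 and 15.8 CPM as the exercised ones. No exercised liver reached down to the highest sedentary liver. The mean went from 7.86 ± 1.12 CPM without exercise to 13.5 ± 1.60 CPM with it (SD, n = 6 each), which is 1.72-fold (95% interval 1.48 to 1.99). The log2FC was 0.78 (SE 0.10, adjusted p = 9.07e-06, edgeR). The annotation also places the antisense gene Gm16145 within Sirt1, and whether reads were counted by strand is not given in the sources used here, so reads of both may be joined in this value.

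Nadk (gene ID 192185), the cytosolic kinase that turns NAD into NADP, lies on chromosome 4 from 155562378 to 155591001 on the plus strand. Sedentary livers had 158, 164 and 200.3 CPM (lowest, median, highest) and exercised livers 185, 209 and 222 CPM. The groups overlapped through a single sedentary liver, replicate 1, and 5 of the 6 exercised livers were above it. The mean rose from 171 ± 15.6 to 207 ± 12.2 CPM (SD, n = 6 each), a log2FC of 0.28 (SE 0.06, adjusted p = 0.00181, edgeR). The rise of 21.5% was smaller than those of Nnmt and Sirt1, and it was 0.18 on the log2 scale (adjusted p = 0.0422, edgeR) when libraries were scaled by their size alone.

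Qprt (gene ID 67375), quinolinate phosphoribosyltransferase, takes quinolinic acid into nicotinic acid mononucleotide and so closes the de novo route from tryptophan. It lies on chromosome 7 from 127107114 to 127122226 on the minus strand. Sedentary livers had 73.1, 82.2 and 89.0 CPM (lowest, median, highest), and exercised livers had 58.5, 65.0 and 69.8 CPM. All 6 exercised livers were below the lowest sedentary liver. The mean fell from 81.9 ± 5.69 to 64.8 ± 4.50 CPM (SD, n = 6 each), a log2FC of -0.34 (SE 0.06, adjusted p = 0.000253, edgeR).

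The other 5 genes did not pass the test. Their 95% intervals hold under TMM scaling and leave out the uncertainty of the scaling itself. Nampt (gene ID 59027) makes nicotinamide mononucleotide and is the rate-limiting enzyme of salvage. It lies on chromosome 12 from 32819545 to 32853349 on the plus strand, where the noncoding gene Gdap10 overlaps it on the same strand, so reads of both may be joined in its value. Its level was 78.6, 88.0 and 94.1 CPM (lowest, median, highest) in sedentary livers and 75.1, 91.5 and 124 CPM in exercised livers. The exercised livers spread to both sides of the sedentary ones, with 1 above and 2 below all of them. The mean was 87.1 ± 6.55 against 91.7 ± 17.5 CPM (SD, n = 6 each), and the log2FC of 0.07 had a 95% interval from -0.14 to 0.29 (adjusted p = 0.599, edgeR). Without Exercise 3, the highest liver, it was -0.026.

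Nmnat1 (gene ID 66454), the nuclear enzyme that joins the mononucleotide to an adenylyl group to form NAD, lies on chromosome 4 from 149467572 to 149485202 on the minus strand. Its mean was 17.1 ± 0.58 CPM in sedentary and 17.1 ± 0.90 CPM in exercised livers (SD, n = 6 each), and no liver was below 15.6 CPM. The 95% interval of its log2FC, -0.12 to 0.12, was among the narrowest of the 9 genes. Tmem274, on the opposite strand of the same stretch, had 0 to 1 counts per liver.

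Naprt (gene ID 223646), which starts the route from nicotinic acid, lies on chromosome 15 from 75890956 to 75894481 on the minus strand. Its mean was 85.8 ± 3.86 CPM in sedentary and 88.4 ± 8.10 CPM in exercised livers (SD, n = 6 each), with a 95% interval of the log2FC from -0.087 to 0.17. Exercised livers ran from 76.8 to 97.9 CPM and enclosed the sedentary range of 80.7 to 90.8 CPM. Eef1d, which overlaps the end of Naprt on the same strand, changed by 0.20 on the log2 scale (adjusted p = 0.0236, edgeR), and its part in the Naprt value was not tested.

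Nadsyn1 (gene ID 78914), the synthetase that amidates the last precursor of both the de novo and nicotinic acid routes, lies on chromosome 7 from 143795584 to 143822849 on the minus strand. It had 18.05 ± 1.54 CPM in sedentary and 17.6 ± 2.38 CPM in exercised livers (SD, n = 6 each), with a 95% interval of the log2FC from -0.22 to 0.15. Of the exercised livers, 5 lay between 17.9 and 19.7 CPM and replicate 3 lay at 12.9 CPM. Sirt3 (gene ID 64384), the main mitochondrial deacetylase, lies on chromosome 7 from 140863666 to 140882309 on the minus strand. It measured 53.1 ± 2.97 CPM against 55.8 ± 2.94 CPM (SD, n = 6 each), and its interval ran from -0.044 to 0.18. Ric8a and Psmd13 overlap the ends of Sirt3 on the opposite strand, and neither passed the test (adjusted p = 0.108 and 0.907, edgeR).

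The direction of the small differences depended on how libraries were scaled. Scaling by library size alone, without TMM, moved the median log2FC of all genes from -0.0028 to -0.098 and the share of calls that were higher from 49.8% to 32.1%. Under it the fold changes of Nampt, Sirt3, Naprt and Nmnat1 turned negative, to between -0.094 and -0.025, and none of them passed the threshold under either scaling. Nnmt, Sirt1, Nadk and Qprt kept their direction and passed the threshold under every scaling, filter, test and left-out liver that was tried.

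**Figure D2:**
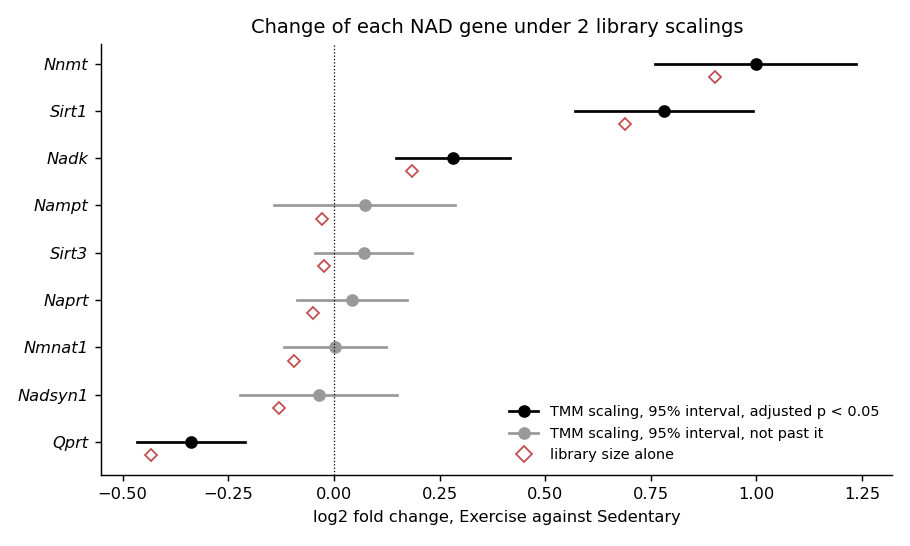
Log2 fold change of the 9 genes (x axis, Exercise against Sedentary) from edgeR with TMM scaling, as circles with 95% intervals, black where the adjusted p was below the threshold; open diamonds give the estimate scaled by library size alone. The diamonds of Nampt, Sirt3, Naprt and Nmnat1 lie left of 0, on the other side from their circles.

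In a ratio of the CPM of a pair of genes within a liver, the library scaling cancels. The tested log2 ratios add 0.5 to each CPM and so keep some dependence on it. The ratio of Nampt to Nnmt, the enzymes that recycle and methylate nicotinamide, ran from 0.655 to 0.997 in sedentary livers and from 0.309 to 0.467 in exercised livers. The ranges did not overlap, and the mean ratio went from 0.781 ± 0.142 to 0.405 ± 0.066 (SD, n = 6 each). The difference in log2 ratio was -0.94, with p = 0.00216 in a two-sided exact permutation test and 0.00433 after adjustment over the 4 pairs compared. In the fit of single genes, Nnmt had a log2FC of 1.00 and Nampt one of 0.07.

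The ratio of Sirt1 to Sirt3 also separated the groups, with 0.118 to 0.167 in sedentary livers and 0.214 to 0.283 in exercised livers. Its log2 difference was 0.68 (exact permutation, adjusted p = 0.00433). The ratio of Nadk to Nadsyn1 was 9.58 ± 1.82 in sedentary and 12.0 ± 2.13 in exercised livers (SD, n = 6 each), and this did not pass (exact permutation p = 0.039, adjusted 0.0519). It passed without Sedentary 1 (adjusted p = 0.00577), Exercise 2 (0.0491) or Exercise 4 (0.0404) in the same exact permutation test. The ratio of Nampt to Nmnat1, which are consecutive steps of salvage, was 5.10 ± 0.360 and 5.40 ± 1.297 (SD, n = 6 each) and did not pass (exact permutation p = 0.79).

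**Figure D3:**
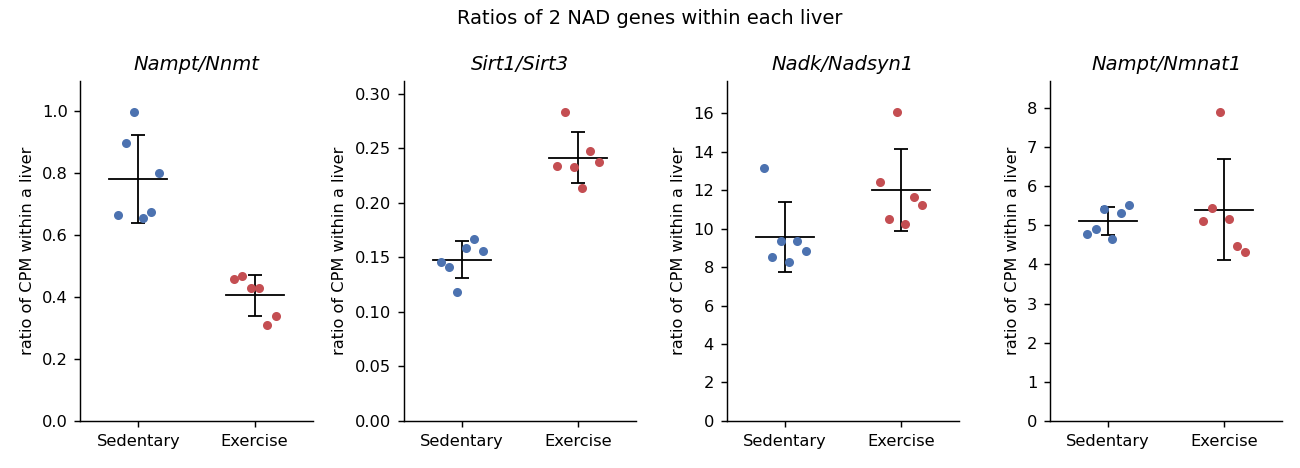
CPM of 1 gene divided by that of another within the same liver (y axis, no unit) for the 4 pairs, with points for livers, a line for the mean and bars for the SD. The Nampt/Nnmt and Sirt1/Sirt3 ratios of the 6 exercised livers lie wholly below and above the sedentary ones, respectively.

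On the length-scaled FPKM values, which allow different genes to be compared, Nnmt was the most abundant of the 9 and Sirt1 the least in both groups. In sedentary livers the order was Nnmt (127 ± 18.3 FPKM), Qprt (73.7 ± 4.97), Nadk (60.1 ± 6.08), Naprt (54.2 ± 3.98), Sirt3 (40.1 ± 1.56), Nampt (20.0 ± 1.47), Nmnat1 (8.05 ± 0.42), Nadsyn1 (7.51 ± 0.59) and Sirt1 (2.12 ± 0.27 FPKM; SD, n = 6). Neighbours overlapped between Qprt and Nadk, Nadk and Naprt, and Nmnat1 and Nadsyn1. In exercised livers Nadk (68.6 ± 4.71 FPKM) stood above Qprt (54.7 ± 4.57 FPKM) in each of the 6 livers, while in the sedentary group Qprt was above Nadk in each of the 6. Exercised livers of Qprt and Naprt overlapped, as did those of Naprt and Sirt3 and those of Nmnat1 and Nadsyn1.

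**Figure D4:**
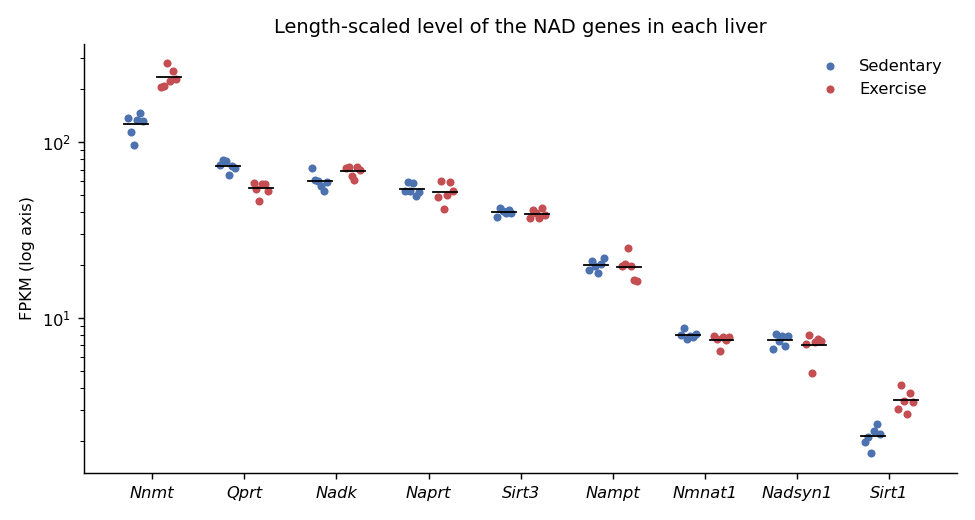
FPKM (log axis) of the 9 genes, ordered by their sedentary mean, in 6 Sedentary (blue) and 6 Exercise (red) livers; each point is a liver and each line a mean. Levels span from Sirt1, at 1.70 to 4.18 FPKM over the 12 livers, to Nnmt, at 96.2 to 281 FPKM, and Qprt and Nadk trade places between the groups.

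The estimated count and the FPKM of a gene together give the effective transcript length used for it, which moves when the mix of its transcripts moves. The length was tested relative to the library median, by exact permutation adjusted over the 9031 genes with a value. None of the 9 genes passed, nor did any other gene (background 0%), although 3052 had an unadjusted p below 0.05. A low unadjusted p could depend on the median. For Nampt and Qprt the exact permutation p was 0.037 and 0.032 relative to it, and 0.53 and 0.31 without it. The largest shift among the 9 was -0.04 on the log2 scale, in Nadsyn1, from 2483 ± 62.8 to 2418 ± 41.6 bases (SD, n = 6 each). For Nnmt the length was 926 ± 5.22 and 937 ± 4.64 bases (exact permutation p = 0.0108, adjusted 0.14). With a smallest possible p of 0.00216 and 9031 genes, the adjustment passed no gene, so missing the threshold does not show that the mix of transcripts stayed as it was.

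Exercise 3 was the highest or the lowest of the 6 exercised livers in 7 of the 9 genes, highest for Nampt, Nnmt and Sirt3 and lowest for Nmnat1, Naprt, Nadsyn1 and Qprt. Over all genes tested it was highest or lowest in 45.1%, and the other 11 livers ranged from 24.1% to 39.7%. Without it the same 4 genes passed the test. This liver was singled out after its values were seen.

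For each gene, the 3 tested genes whose log2 level followed it most closely over the 12 livers, after the group means were taken off, were found among 11537 genes. For Nnmt these were N4bp2 (Pearson r = 0.94), Nfkbiz (0.93) and Tmed5 (0.93), with r of 0.90 to 0.92 without Exercise 3. For Sirt1 they were Tmc6, Il22ra1 and Zfp329 (r of 0.88 each), and for Qprt they were Map2k1 (0.93), Pmpca (0.88) and Fem1a (0.88). For Nampt they were Tor1b (0.92), Klb (0.91) and Abcb1a (0.89), which dropped to 0.76, 0.78 and 0.78 without Exercise 3. These are the highest of many correlations and carry no test.

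The genes around the 9 were described in lists by role, which were chosen with earlier results of these data known. Of 95 tested genes, 58 (61.1%) passed the threshold, against 42.4% of all genes tested. Of these, 32 were higher (background 21.1%) and 26 lower (background 21.3%). A share above the background cannot be told apart from the choice of genes. In the 8 lists other than the SIRT1 partners and the clock genes, 40 of 73 (54.8%) passed, 20 in each direction, with a median log2FC of 0.01. These 8 include the methyl donor cycle and the NADH shuttles, whose genes do not all act on NAD itself.

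In the list of de novo synthesis from tryptophan, 4 of 10 tested genes passed, a share of 40% that is near the 42.4% of all genes tested. By direction, 4 were higher (background 21.1%) and 0 were lower (background 21.3%). This list leaves out Qprt, described above, which closes the route and fell (log2FC -0.34, adjusted p = 0.000253, edgeR). Tdo2, which opens the tryptophan ring, rose from 1033 ± 278 to 2201 ± 163 CPM (SD, n = 6 each; log2FC 1.09, adjusted p = 6.86e-05, edgeR). Acmsd, which diverts the route away from quinolinic acid, rose from 32.7 ± 5.65 to 76.0 ± 12.7 CPM (log2FC 1.22, adjusted p = 5.68e-06, edgeR). Kynureninase Kynu rose by 0.49 and Kyat3, an aminotransferase that makes kynurenic acid, by 0.53 on the log2 scale (adjusted p = 0.000148 and 8.19e-05, edgeR). Haao, which makes the precursor of quinolinic acid, had a log2FC of -0.12 (adjusted p = 0.0895, and 0.0438 without Sedentary 1, edgeR). The hydroxylase Kmo had 0.09 (adjusted p = 0.263, edgeR), which was -0.0017 when scaled by library size alone.

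Among 6 tested genes of salvage and NAD formation, 2 rose (background 21.1%) and 2 fell (background 21.3%). Nmnat3, the mitochondrial counterpart of Nmnat1, fell from 4.12 ± 0.57 to 1.47 ± 0.25 CPM (SD, n = 6 each; log2FC -1.49, adjusted p = 4.65e-07, edgeR), with 19 to 107 counts per liver. Nicotinamide riboside kinase Nmrk1 fell from 36.4 ± 3.08 to 25.7 ± 3.50 CPM (log2FC -0.50, adjusted p = 0.000104, edgeR). Neither gene overlapped between the groups, which held for 22.3% of all genes tested. The count of 4 dropped to 2 without Sedentary 2, Sedentary 4 or Exercise 3.

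For NADP, 2 of 9 tested genes rose (background 21.1%) and 3 fell (background 21.3%). Without Sedentary 2, Sedentary 6, Exercise 2 or Exercise 4 these 5 became 3. Noct, a phosphatase that returns NADP to NAD, rose from 34.1 ± 4.56 to 83.4 ± 17.1 CPM (SD, n = 6 each; log2FC 1.29, adjusted p = 7.67e-06, edgeR). Nadk2, the mitochondrial NAD kinase, had a log2FC of 0.05 (adjusted p = 0.579, edgeR) against 0.28 for Nadk, and library size scaling turned it to -0.043.

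Of the 5 other sirtuins, 1 passed (20%, against 42.4% of all genes tested). The mitochondrial desuccinylase Sirt5 fell from 10.1 ± 0.86 to 6.70 ± 0.92 CPM (SD, n = 6 each), a log2FC of -0.59 (adjusted p = 8.89e-05, edgeR). Its direction was opposite to that of Sirt1. The groups did not overlap, which held for 22.3% of all genes tested. Sirt2 and Sirt6 had log2FCs of 0.11 and 0.13 (adjusted p = 0.0932 and 0.372, edgeR). Without Sedentary 1, Sedentary 5 or Exercise 6 a further sirtuin passed and the count was 2, and Sirt2 was the one without Sedentary 5 (adjusted p = 0.0484, edgeR).

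Other NAD consumers moved both ways, with 3 of 11 tested genes higher (background 21.1%) and 4 lower (background 21.3%). Parp16, a mono-ADP-ribosyltransferase of the endoplasmic reticulum, rose from 19.4 ± 0.96 to 37.8 ± 4.31 CPM (SD, n = 6 each; log2FC 0.96, adjusted p = 4.36e-08, edgeR). Parp3 and Parp9 fell by 0.71 and 0.52 on the log2 scale (adjusted p = 1.14e-05 and 0.000204, edgeR), and Parp1, the main DNA damage responder, fell by 0.22 (adjusted p = 0.0147, edgeR). The NAD hydrolase Cd38 did not pass (0.23, adjusted p = 0.0583, edgeR) but did without Exercise 1 (0.0213) or Exercise 2 (0.0495).

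Nnmt needs S-adenosylmethionine. In the list of nicotinamide oxidation and the methyl donor cycle, 5 of 14 tested genes rose (background 21.1%) and 4 fell (background 21.3%). Mat1a, which makes S-adenosylmethionine in liver, rose from 3082 ± 692 to 4365 ± 625 CPM (SD, n = 6 each; log2FC 0.50, adjusted p = 0.00734, edgeR). Gnmt, the abundant competing methyltransferase, had 0.15 (adjusted p = 0.134, edgeR). The aldehyde oxidase Aox3, one of the enzymes that oxidize nicotinamide derivatives, fell by 0.51 (adjusted p = 0.0242, edgeR), and this call was lost without Sedentary 1 (0.0525), Sedentary 5 (0.0539), Exercise 5 (0.0523) or Exercise 6 (0.0531).

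In transport and repair, 3 of 7 tested genes rose (background 21.1%) and 1 fell (background 21.3%). Slc25a51, the mitochondrial NAD carrier, rose from 61.2 ± 11.7 to 179 ± 21.0 CPM (SD, n = 6 each; log2FC 1.55, adjusted p = 2.22e-07, edgeR). The hepatocyte mitochondrial carrier Slc25a47 rose by 0.52 and the nucleoside transporter Slc29a1 by 0.62 (adjusted p = 3.81e-05 and 4.80e-06, edgeR). Of the NADH shuttles, 1 of 11 rose (background 21.1%) and 5 fell (background 21.3%). Cytosolic aspartate aminotransferase Got1 rose from 167 ± 52.9 to 567 ± 98.8 CPM (log2FC 1.76, adjusted p = 7.94e-05, edgeR), and the dicarboxylate carrier Slc25a10 fell by 0.64 on the log2 scale (adjusted p = 8.76e-06, edgeR).

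Among 8 partners and targets of SIRT1, 3 rose and 3 fell (75% called, against 42.4% of all genes tested). The coactivator Ppargc1a rose by 1.88, Foxo1 by 1.05 and Foxo3 by 1.11 on the log2 scale (adjusted p = 5.09e-06, 1.40e-05 and 2.43e-08, edgeR). The lipogenic factor Srebf1 fell by 1.94 (adjusted p = 3.73e-07, edgeR). None of these 4 overlapped between the groups, but they were named because they had passed the test. In the whole list 5 of 8 did not overlap, against 22.3% of all genes tested.

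Of 14 tested clock genes, 12 passed (85.7%, against 42.4% of all genes tested), with 9 higher (background 21.1%) and 3 lower (background 21.3%) and a median log2FC of 0.46. This list too was chosen with earlier results of these data known, so the share is a description only. The repressors Per1 and Cry1 rose by 0.87 and 0.65 (adjusted p = 1.90e-06 and 3.24e-06, edgeR), and Nr1d2 by 0.69 (adjusted p = 0.00525, edgeR). The repressors did not all rise: Per2 had -0.02 (adjusted p = 0.945, edgeR) and Per3 fell by 0.37 (adjusted p = 0.0219, edgeR). The activators Clock and Arntl rose by 0.40 and 0.39 (adjusted p = 0.0012 and 2.60e-05, edgeR). Nfil3 and Rora rose by 0.92 and 0.67 (adjusted p = 1.08e-07 and 2.89e-06, edgeR), and the output factor Dbp fell by 0.62 (adjusted p = 0.00305, edgeR).

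**Figure D5:**
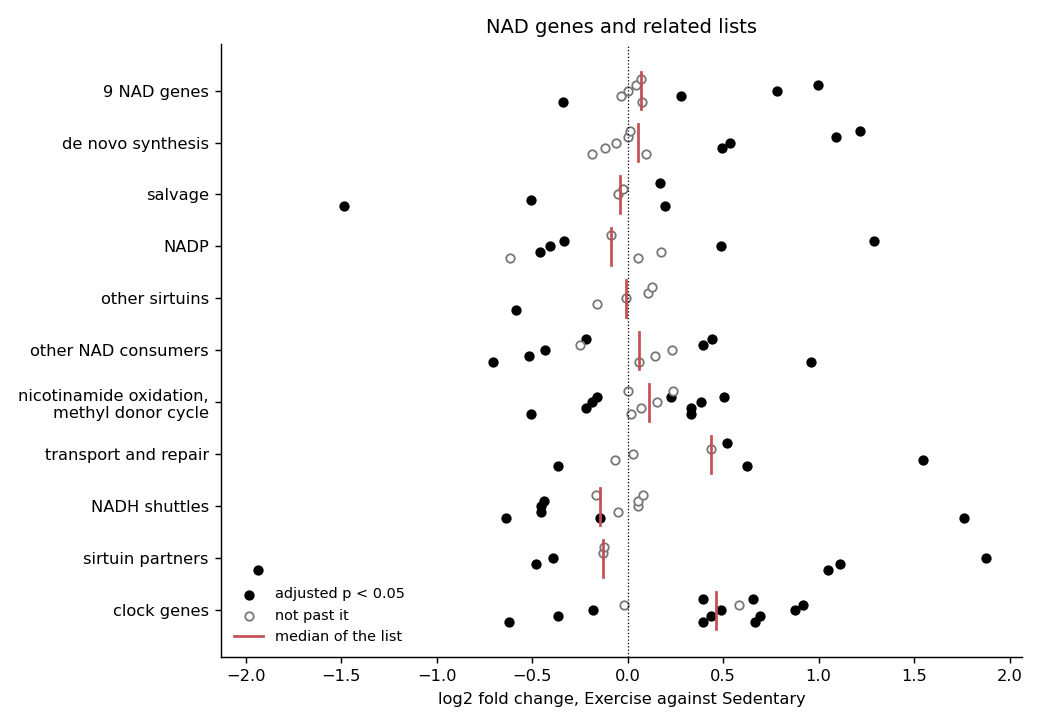
Log2 fold change (x axis, Exercise against Sedentary) of each tested gene, by list, filled where the adjusted p was below the threshold, with a red line at the median of the list. Changed genes lie on both sides of 0 in most lists. The 4 changed genes of the de novo synthesis list, which leaves out Qprt, lie to the right. The median of the clock genes is 0.46.

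Cell type markers were checked beside these results. Hepatocyte markers were abundant in every liver, at 116894 to 157662 CPM summed over 8 genes in sedentary and 145509 to 166785 CPM in exercised livers. The sum was mostly Alb, with a mean of 100396 CPM in sedentary and 118791 CPM in exercised livers. Its difference had p = 0.013 (two-sided exact permutation test), not adjusted for the other marker sums. Of the 8, 3 were higher (37.5%, background 21.1%) and 0 were lower (background 21.3%). Endothelial markers had 3 of 6 higher (background 21.1%) and 1 lower (background 21.3%), with sums of 119 to 166 against 139 to 212 CPM (exact permutation p = 0.067). Stellate markers had 2 of 6 lower (background 21.3%), with sums of 155 to 207 against 145 to 211 CPM (exact permutation p = 0.654). Of the tested markers of Kupffer cells (7), neutrophils (2), lymphocytes (1), cholangiocytes (4) and erythroid cells (5), 0 passed in edgeR. Their summed levels were 65.0 to 111 against 76.3 to 119 CPM for Kupffer cells, 2.60 to 3.53 against 1.97 to 4.23 CPM for neutrophils, 1.44 to 3.05 against 1.04 to 2.55 CPM for lymphocytes, 8.07 to 9.53 against 7.77 to 10.2 CPM for cholangiocytes and 416 to 684 against 414 to 527 CPM for erythroid cells. No listed marker was at 0 in all livers. The part of the hepatocyte, endothelial and stellate differences in the values of the 9 genes was not tested.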

How the data were processed

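Liver RNA of 6 sedentary and 6 exercised mice was sequenced, and groups were taken from the sample labels. The authors deposited estimated counts per gene, of which 31.3% were not whole, and FPKM values scaled by the authors for transcript length and depth. The submitters' processing notes name Bowtie2 2.3.4.3, RSEM 1.3.1 and mm10 without roles. The annotation and strand setting are not given in the sources used here.

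Rounded counts went into edgeR 4.0.16 (R 4.3.3), with TMM factors, filterByExpr at 10 counts and a robust quasi-likelihood model. Benjamini-Hochberg adjustment ran over 12344 genes, with 0.05 as threshold. The biological coefficient of variation over all genes was 11.3%, which leaves out counting error. Levels are TMM-scaled CPM, and log2 levels add 0.5. Single values and ratios were tested by exact permutation over all relabellings of the livers in Python 3.11.15. Effective lengths, count divided by FPKM relative to the library median, were adjusted over all genes with a value, not over the 9 genes as planned. No libraries among 66 pairs were identical. In simulated counts with 100 genes changed 1.5-fold and 100 changed 2-fold among 12344, edgeR recovered 66% and 90%, and 4.88% of its calls were false. Far fewer genes changed there than the 42.4% called in the data, so these rates need not hold for the real calls.

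The 9 genes and the lists, written from general knowledge, were chosen with earlier results of these data known. Named genes are the 9, the list genes past the threshold with an absolute log2 fold change of at least 0.5, and 16 fixed genes. Per2, Per3, Clock and Arntl are given beside these for contrast. Aox2, Aox4 and Bmal1 matched no symbol in the table (Arntl did). Gene positions are from GENCODE on GRCm38. Promoter windows use RefSeq start sites, which can lie inside the GENCODE span, as for Sirt1 and Nampt. Livers are written by group and number (Exercise 3). Alternatives were RLE, upper quartile and library size scaling, DESeq2 1.42.0, limma-voom (limma 3.58.1), limma on log2(FPKM + 0.1), other filters, a threshold of 0.01, a replicate block and leaving out each liver.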

Additional observations from a re-analysis of the deposited data

Results flagged for a closer look

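In groups of 6 livers, a liver was marked when its gap to the nearest other, divided by the range of the group, exceeded Dixon's critical value for 6 samples. This held in 5 of 90 groups checked, where chance gives about 4.5. Nampt in Exercise 3 was at 124 CPM against 92.2 CPM for the next liver (gap 0.647 of the range). Nadsyn1 in the same liver was at 12.9 CPM against 17.9 CPM (0.734). Ppargc1a in Exercise 3 was at 42.1 CPM against 32.5 CPM (0.698). Per1 in Sedentary 2 was at 33.8 CPM against 48.5 CPM (0.694). Dbp in Exercise 6 was at 4.03 CPM against 4.81 CPM (0.755).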

How the results depend on the processing

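Of the 9 genes, Nnmt, Sirt1, Nadk and Qprt kept direction and call in all 22 alternatives, and the other 5 were past the threshold in none. Signs of uncalled values turned as follows. With library size alone the log2 fold change was -0.027 for Nampt, -0.025 for Sirt3, -0.050 for Naprt, -0.094 for Nmnat1, -0.0017 for Kmo and -0.043 for Nadk2. With limma on FPKM it was -0.039 for Nampt, -0.029 for Sirt3, -0.063 for Naprt, -0.095 for Nmnat1 and -0.032 for Nadk2, and with upper quartile scaling it was -0.019 for Nmnat1. Both library size alone and FPKM shift all genes down (medians -0.098 and -0.093, with 32.1% and 31.5% of calls higher against 49.8%), and FPKM gave 1711 genes higher against 2603.

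When single livers were dropped, log2 fold changes ranged from -0.026 (without Exercise 3) to 0.13 for Nampt, from -0.011 to 0.030 for Nmnat1 and from -0.081 to 0.041 (without Exercise 3) for Nadsyn1. The log2 ratio difference ranged from -0.059 (without Exercise 3) to 0.11 for Nampt/Nmnat1 and from 0.24 to 0.42 for Nadk/Nadsyn1, which at log2(CPM + 1) was 0.32 and passed (exact permutation, adjusted p = 0.0491). Effective length shifts, all uncalled, ranged from -0.0067 to 0.00037 for Sirt1, from -0.0027 to 0.0012 for Nmnat1 and from -0.0038 to 0.012 for Naprt. Not taken relative to the library median they were 9.83e-05 for Nampt and 0.0016 for Nmnat1.

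The labels do not say whether replicate numbers pair the mice. Same-numbered livers correlated from -0.099 to 0.16 in their deviations, and 3 of 12 correlated best with their own number. These values do not settle it. A replicate block left 2490 genes higher and 2466 lower, against 2603 and 2626, and changed no call of the 9 genes, but among the named genes Aox3 lost its call (adjusted p = 0.0564). In the paired exact sign-flip test the differences of Nampt/Nnmt (-0.94) and Sirt1/Sirt3 (0.68) did not pass (adjusted p = 0.0625, the smallest this test gave after adjustment). With 6 livers per group it has few sign flips and cannot give a small p, so this miss does not show a weaker difference. The threshold of 0.01 also removed the calls of Parp1 and Aox3. Haao passed with library size alone, DESeq2 and FPKM. The genes called in salvage were 2 in place of 4 with library size alone, FPKM or the threshold of 0.01. In NADP they were 3 in place of 5 without the count filter or at 0.01, in the other sirtuins 2 in place of 1 with upper quartile, library size alone or FPKM, and in the methyl donor list 5 in place of 9 at 0.01. Counting error (Poisson) limited the genes with few counts. For Nmnat1 it was 5.44% (Sedentary) and 5.66% (Exercise) of the level, against a whole spread between livers of 3.41% and 5.24%. For Sirt1 it was 8.06% and 6.40% against 14.3% and 11.9%, and for Nmnat3 11.1% and 19.5% against 13.9% and 17.2%. The causes of these differences were not tested.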
